A study of Homo sapiens with 6 samples.

Results

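The 10 genes examined here belong to the YAP-TEAD pathway and were compared between Caki2 cells that re-expressed PBRM1 and Caki2 cells that did not. They were chosen by symbol from the 25369 genes listed for each sample. They are the coactivator genes YAP1 and WWTR1 (which encodes TAZ), the transcription factor gene TEAD1, the genes of the inhibitors LATS2, AMOTL1 and AMOTL2, and the target genes CTGF, CYR61, ANKRD1 and AXL. CTGF and CYR61 are older symbols of the genes now called CCN2 and CCN1. All 10 were listed in every sample.

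Caki2 is a clear cell renal cell carcinoma (ccRCC) line that makes no PBRM1 protein, and PBRM1 is a subunit of the PBAF chromatin remodeling complex. RNA-Seq of poly(A) RNA compared 3 samples of Caki2 cells bearing an empty doxycycline-inducible lentiviral vector (Caki2+Vector, replicates A, B and C) with 3 samples of Caki2 cells bearing that vector with PBRM1 (Caki2+PBRM1, replicates A, B and C). Both groups were kept in doxycycline at 2 µg/ml, so exposure to the drug was shared. PBRM1 was driven by a tetracycline-responsive promoter, with the activator supplied by a further lentivirus, and each group carries the name of a single selected line. A difference that arose between the lines apart from PBRM1 therefore cannot be told apart from an effect of PBRM1, and the p-values measure only the spread between samples of a line.

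YAP and TAZ have no DNA-binding domain of their own and act by binding TEAD factors on DNA. The Hippo kinases MST1 and MST2 (genes STK4 and STK3) activate LATS1 and LATS2, which phosphorylate YAP and TAZ and keep them out of the nucleus. Cell contact, cell shape and the actin cytoskeleton feed into this cascade, and angiomotins such as AMOTL1 and AMOTL2 bind YAP and TAZ directly. CTGF, CYR61 and ANKRD1 are the most widely used transcript readouts of YAP-TEAD activity. LATS2 and AMOTL2 are themselves targets and act as negative feedback. Because YAP and TAZ are controlled mainly by phosphorylation, location and stability, the levels of their own transcripts do not measure their activity.

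The values are normalized counts, that is, reads on a gene divided by a size factor for the sample. Between 7312955 and 10835355 reads per sample lay on genes. PBRM1 itself had normalized counts of 195, 182 and 182 in Caki2+Vector and of 2432, 2521 and 2682 in Caki2+PBRM1, as the labels state. Of the kidney and ccRCC markers examined, PAX8, a renal lineage factor, had 2072 ± 161 normalized counts in Caki2+Vector, beside 2094 ± 41.2 in Caki2+PBRM1 (SD, n = 3), whereas CA9, a hypoxia-inducible ccRCC marker, had 1.58 ± 1.44 and 10.3 ± 4.4. CA9 and LRP2, a proximal tubule receptor, were below the filter. The epithelial keratin genes KRT8 and KRT18 were called lower and the mesenchymal filament gene VIM was called higher. Of 8 markers of blood, endothelial, hepatic and muscle cells, CD3E and ALB were listed at 0 in every sample. The summed normalized counts of these markers ran from 2037 to 2205 in Caki2+Vector and from 1947 to 2007 in Caki2+PBRM1, nearly all of it CD68, a lysosomal gene (log2 fold change -0.11, adjusted p = 0.0461 from limma), whose part in the results was not tested. Among replicates, Caki2+Vector A stood apart, with a chi-square per degree of freedom of 3.09 and 2.84 against Caki2+Vector B and C, beside 1.34 between B and C and 1.19 to 1.22 within Caki2+PBRM1, where sampling noise alone gives 1. Results that this sample decides are given with and without it.

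CTGF, CYR61 and AMOTL1 were upregulated upon PBRM1 re-expression, whereas the transcripts of the coactivators YAP1 and WWTR1 did not pass the test. Among the 10 genes, 5 were upregulated (CTGF, AMOTL1, CYR61, ANKRD1 and AXL) and 2 were downregulated (LATS2 and TEAD1) in Caki2+PBRM1, and YAP1, WWTR1 and AMOTL2 did not pass the threshold. The test was limma's moderated test on log2(normalized count + 1), fitted over 13303 genes with at least 10 normalized counts in at least 3 samples, with Benjamini-Hochberg adjustment and a threshold of 0.05 on the adjusted p. Over all tested genes 16.2% were called higher, 13.0% were called lower and 29.2% were called in either direction. The 10 genes and the lists below were chosen with earlier results of these data known, so these shares are background and not a test. With samples scaled by total reads in place of size factors, 1625 genes were called higher and 2781 lower, against 2152 and 1734 here. The median log2 fold change of the 10 genes was 0.09, beside -0.004 for all tested genes. In all 7 genes that were called the samples of the groups did not overlap, which was also true of 41.7% of tested genes (22.1% higher and 19.6% lower). For such a gene the exact two-sided permutation test of 3 samples against 3 gives p = 0.1, the smallest that the design allows. Without Caki2+Vector A each of the 7 stayed past the threshold and the other 3 stayed short of it. In bulk RNA, fewer cells with a transcript and less of it per cell cannot be told apart.

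**Figure D1:**
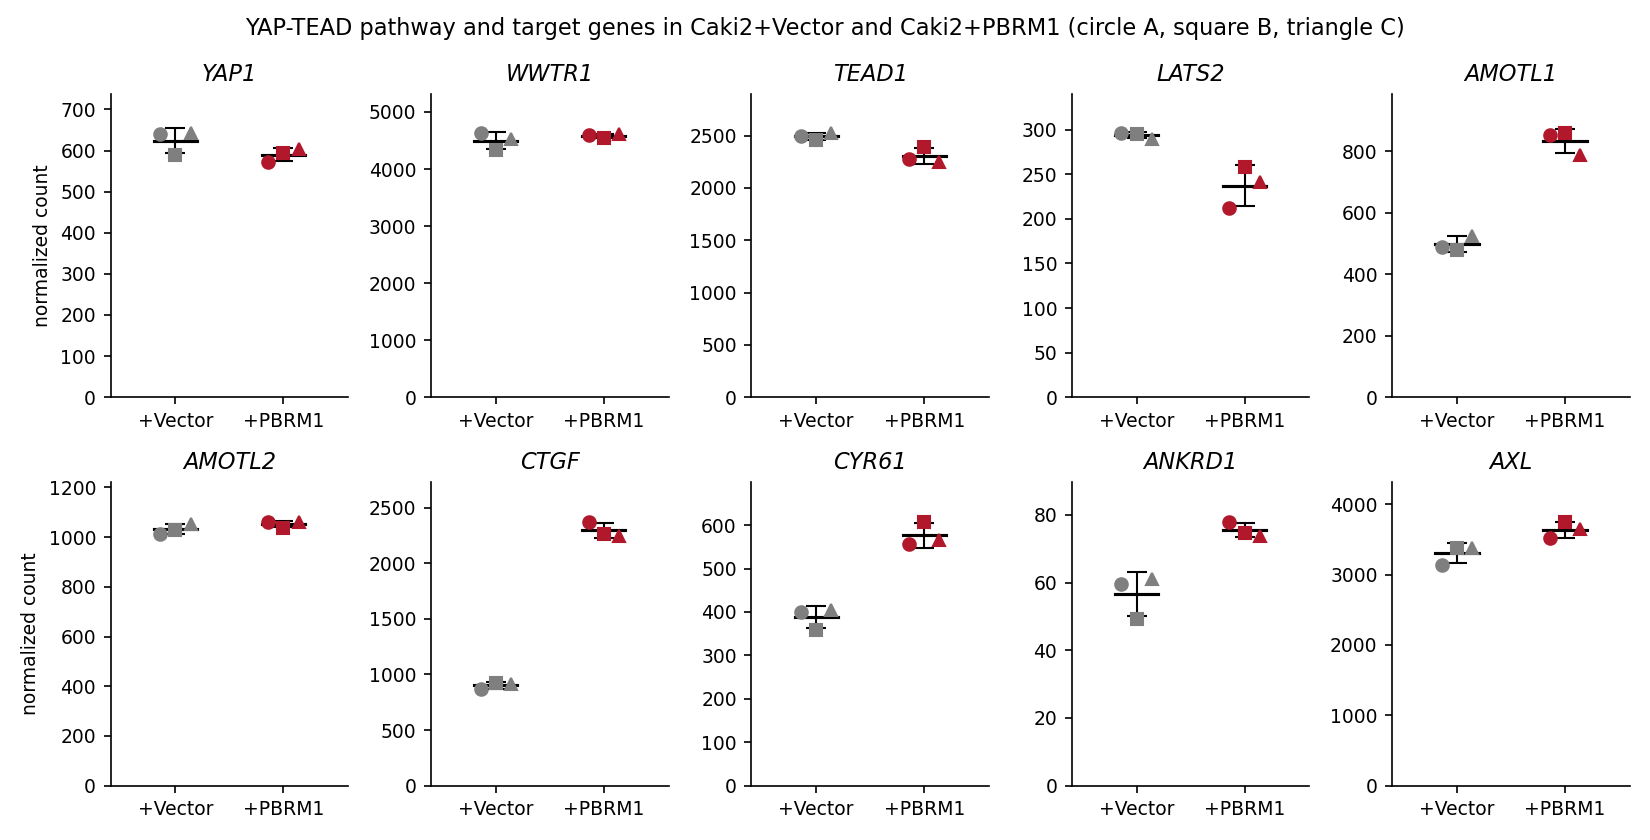
Normalized counts (vertical axes, from 0) of the 10 genes in the 3 Caki2+Vector samples (grey) and the 3 Caki2+PBRM1 samples (red), with a symbol for each replicate letter and the mean and SD of each group in black. CTGF shows the widest gap, from at most 924 in Caki2+Vector to at least 2249 in Caki2+PBRM1, while the groups of YAP1, WWTR1 and AMOTL2 overlap.

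YAP1, the coactivator (GRCh37 chr11:101981178-102104155, plus strand), had normalized counts of 640, 590 and 642 in Caki2+Vector and of 573, 594 and 604 in Caki2+PBRM1. Replicate B of Caki2+Vector was within the range of the Caki2+PBRM1 samples, and the log2 fold change of -0.08 (95% interval -0.20 to 0.04, adjusted p = 0.331 from limma) did not pass the threshold. WWTR1 (chr3:149235022-149454501, minus strand) had 4629, 4332 and 4527 normalized counts in Caki2+Vector and 4599, 4541 and 4607 in Caki2+PBRM1. The lowest and the highest of these 6 values were both Caki2+Vector samples, and the log2 fold change was 0.03 (95% interval -0.05 to 0.10, adjusted p = 0.607). The 95% intervals thus reached up to a rise of 0.04 for YAP1 and 0.10 for WWTR1 on the log2 scale. The sign of the small WWTR1 difference turned to -0.03 when samples were scaled by total reads.

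WWTR1 was the more abundant coactivator transcript per exon length. Its level per kb of exon was 5.32 to 5.55 times that of YAP1 in the Caki2+Vector samples and 5.76 to 6.06 times in the Caki2+PBRM1 samples. These ranges did not overlap, although neither gene passed the test by itself. Exon lengths are those of all annotated transcripts of a gene combined, so levels per kb are approximate.

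TEAD1 (chr11:12695968-12966284, plus strand) encodes a DNA-binding partner of YAP and TAZ. Its normalized counts were 2496, 2459 and 2523 in Caki2+Vector and 2272, 2395 and 2245 in Caki2+PBRM1. Every Caki2+PBRM1 sample was below every Caki2+Vector sample, and the mean fell by 7.57% (log2 fold change -0.11, SE 0.040, adjusted p = 0.0311 from limma). The call was lost without Caki2+Vector C (adjusted p = 0.0798), without Caki2+PBRM1 A (0.130) or C (0.173), and with DESeq2 (0.0812).

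Among inhibitors, LATS2 was downregulated and AMOTL1 was upregulated. LATS2, a kinase that phosphorylates YAP and TAZ (chr13:21547175-21635725, minus strand), had normalized counts of 296, 296 and 290 in Caki2+Vector and of 212, 258 and 242 in Caki2+PBRM1. The Caki2+Vector samples lay close together and all 3 Caki2+PBRM1 samples lay below them, with the widest spread in the latter group. The mean fell from 294 ± 3.5 to 237 ± 23 (SD, n = 3), a difference of -0.31 on the log2 scale (SE 0.082, adjusted p = 0.00414 from limma). Without Caki2+PBRM1 A, the lowest sample, the log2 fold change was -0.24 (adjusted p = 0.054) and the call was lost.

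Of the angiomotin genes, AMOTL1 and AMOT rose and AMOTL2 did not pass the test. AMOTL1 (chr11:94439597-94609913, plus strand) had normalized counts of 490, 478 and 526 in Caki2+Vector and of 854, 860 and 788 in Caki2+PBRM1, with no overlap. Its mean rose from 498 ± 25.0 to 834 ± 39.6 (SD, n = 3), or 1.67-fold (log2 fold change 0.74, SE 0.058, adjusted p = 3.25e-11 from limma). AMOTL2 (chr3:134074189-134094321, minus strand) had 1012, 1029 and 1052 normalized counts in Caki2+Vector and 1063, 1038 and 1060 in Caki2+PBRM1, which overlap. Its log2 fold change was 0.03 (95% interval -0.07 to 0.13, adjusted p = 0.671), with a sign that turned to -0.02 under scaling by total reads. The ratio of AMOTL2 to AMOTL1 in normalized counts per kb of exon was 3.19, 3.33 and 3.10 in Caki2+Vector and 1.93, 1.87 and 2.08 in Caki2+PBRM1, without overlap (exact permutation p = 0.1, the smallest possible). The third family member, AMOT, had only 35.0, 36.8 and 41.9 normalized counts in Caki2+Vector and rose to 85.6, 96.9 and 88.1 in Caki2+PBRM1 (log2 fold change 1.23, SE 0.15, adjusted p = 2.20e-07 from limma). Per kb of exon, AMOT remained the lowest of the 3 in Caki2+PBRM1, at 10.6 normalized counts, beside 83.1 for AMOTL1 and 163 for AMOTL2.

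TEAD factors recognize a hexamer, GGAATG on either strand (CATTCC when read on the other strand). RefSeq promoter windows of build GRCh38.p14, from 250 bases before to 50 bases after a start of transcription, were at hand for 8 of the 10 genes. CYR61 and TEAD1 had none. The hexamer was found in 6 of these 8 genes, against 14.0% of 35116 windows of all genes (16.7% of gene symbols with a window). CTGF held 3 copies, all on the strand of the gene, with first bases at -169, -104 and -95 from the start. Of all windows 0.128% held 3 or more and 1.37% held 2 or more. ANKRD1 held 2 copies, at -220 and -128. YAP1 held a single copy at -162, LATS2 at position 10 of the transcript, AMOTL2 at -69 and AXL at -212, the last 2 on the opposite strand and in only 1 of their 2 windows. WWTR1 and AMOTL1 held none in these windows. A match is a description of the letters and no measurement of binding.

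The 250 bases before the start are shown for the 2 genes with more than 1 copy, the target genes CTGF and ANKRD1, both upregulated, and for AMOTL2, which has a copy and did not pass the test. Capitals mark the hexamer, and each run reads 5′ to 3′ on the minus strand, which is the strand of all 3 genes. The regions are chr6:131951373-131951622 for CTGF, chr10:90921088-90921337 for ANKRD1 and chr3:134374448-134374697 for AMOTL2.
CTGF: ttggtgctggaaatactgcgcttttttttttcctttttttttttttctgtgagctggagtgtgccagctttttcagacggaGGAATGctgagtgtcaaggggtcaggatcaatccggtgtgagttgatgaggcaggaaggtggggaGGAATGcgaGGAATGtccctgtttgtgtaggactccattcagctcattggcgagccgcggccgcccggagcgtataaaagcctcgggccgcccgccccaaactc
ANKRD1: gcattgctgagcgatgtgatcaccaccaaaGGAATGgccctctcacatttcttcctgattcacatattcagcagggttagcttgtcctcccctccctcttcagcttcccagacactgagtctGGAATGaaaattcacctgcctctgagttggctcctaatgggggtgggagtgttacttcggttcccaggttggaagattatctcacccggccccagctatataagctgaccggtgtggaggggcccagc
AMOTL2: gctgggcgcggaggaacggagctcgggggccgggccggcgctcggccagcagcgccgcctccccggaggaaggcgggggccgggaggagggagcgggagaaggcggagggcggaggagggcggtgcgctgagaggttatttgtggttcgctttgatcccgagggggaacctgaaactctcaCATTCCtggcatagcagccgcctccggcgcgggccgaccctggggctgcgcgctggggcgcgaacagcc

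In CTGF the copies at -104 and -95 stand 3 bases apart. CTGF, with 3 copies, had the largest log2 fold change of the 10 genes (1.35), and ANKRD1, with 2 copies, had 0.41. The genes with 1 copy had -0.08 (YAP1), -0.31 (LATS2), 0.03 (AMOTL2) and 0.14 (AXL). AMOTL1 and WWTR1, with none in their windows, had 0.74 and 0.03. A link between copies and fold change was not tested.

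**Figure D2:**
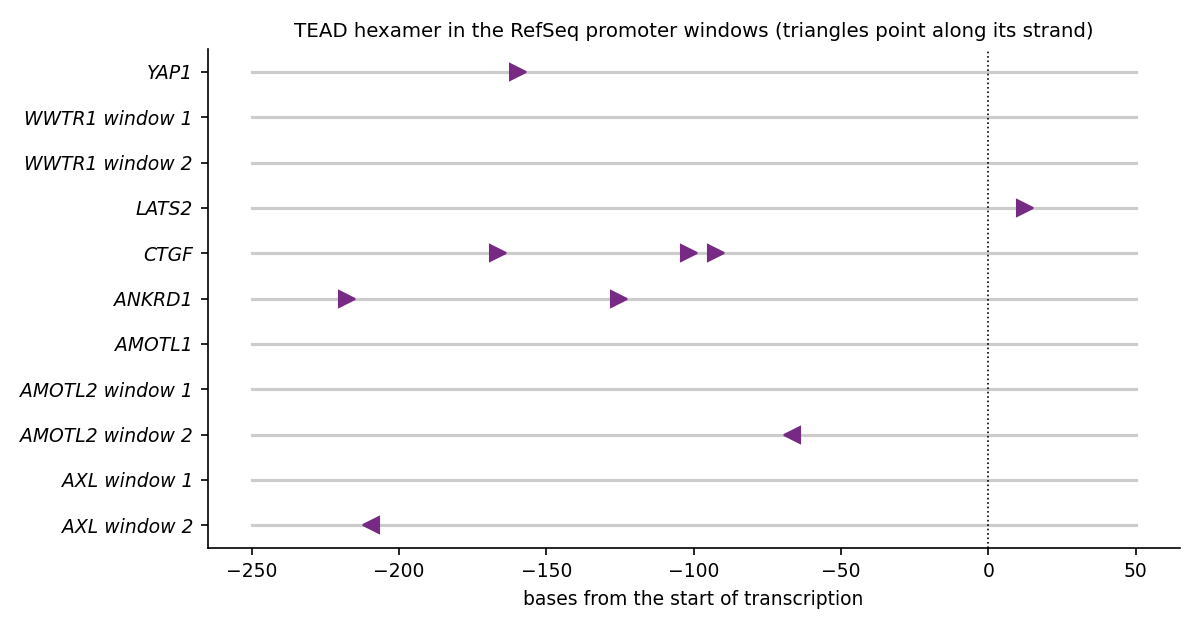
Position of the TEAD hexamer (triangles, pointing along its strand) in the 11 promoter windows of 8 genes, by distance in bases from the start of transcription (dotted line). The 3 copies of CTGF start between -169 and -95, and 5 windows have no copy.

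CTGF, a secreted matricellular protein of the CCN family whose promoter is shown above, was the most strongly changed of the 10 genes. It had normalized counts of 866, 924 and 913 in Caki2+Vector and of 2374, 2266 and 2249 in Caki2+PBRM1. The groups were far apart compared with the spread inside each, with means of 901 ± 30.7 and 2296 ± 68.0 (SD, n = 3), or 2.55-fold higher. Its log2 fold change was 1.35 (SE 0.045, 95% interval 1.26 to 1.44, adjusted p = 6.12e-20 from limma), which ranked 135 from the top among the 13303 tested genes. On GRCh37 the gene occupies bases 132269316 to 132272512 of chromosome 6 (minus strand), and a noncoding gene of the opposite strand, LINC01013, shares 278 bases of its exons. LINC01013 was listed at 0 in every sample.

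CYR61, a CCN family relative of CTGF (GRCh37 chr1:86046444-86050272, plus strand), rose 1.49-fold. Its normalized counts were 400, 358 and 405 in Caki2+Vector and 556, 608 and 565 in Caki2+PBRM1, again without overlap. The mean went from 388 ± 25.9 to 576 ± 27.9 (SD, n = 3; log2 fold change 0.57, SE 0.066, adjusted p = 6.70e-08 from limma). The ratio of CTGF to CYR61 in normalized counts per kb of exon was 3.42, 4.08 and 3.57 in Caki2+Vector and 6.76, 5.89 and 6.30 in Caki2+PBRM1. The ratio was higher in every Caki2+PBRM1 sample than in any Caki2+Vector sample (exact permutation p = 0.1, the smallest possible).

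ANKRD1, an ankyrin repeat protein of the nucleus and the sarcomere (chr10:92671853-92680844, minus strand), was measured by 51 to 88 reads per sample. It had 59.6, 49.1 and 61.1 normalized counts in Caki2+Vector and 78.0, 74.7 and 73.9 in Caki2+PBRM1. All Caki2+PBRM1 samples were higher, by 33.3% between the means (log2 fold change 0.41, SE 0.15, adjusted p = 0.0314 from limma). At this depth the call was fragile. It was lost without Caki2+Vector B (log2 fold change 0.32, adjusted p = 0.137) and without any single Caki2+PBRM1 sample (adjusted p from 0.0750 to 0.0967), with DESeq2 (0.154), and under scaling by total reads (0.0568) and quantile normalization (0.0548).

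AXL (chr19:41725128-41767671, plus strand) encodes a receptor tyrosine kinase whose ligand is GAS6. It had 3142, 3384 and 3384 normalized counts in Caki2+Vector and 3525, 3754 and 3643 in Caki2+PBRM1. The highest Caki2+Vector sample was below the lowest Caki2+PBRM1 sample, and the means differed by 10.2% (log2 fold change 0.14, SE 0.039, adjusted p = 0.00717 from limma). Without Caki2+PBRM1 B the adjusted p was 0.0807, and under scaling by total reads the log2 fold change was 0.09 (adjusted p = 0.0929).

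**Figure D3:**
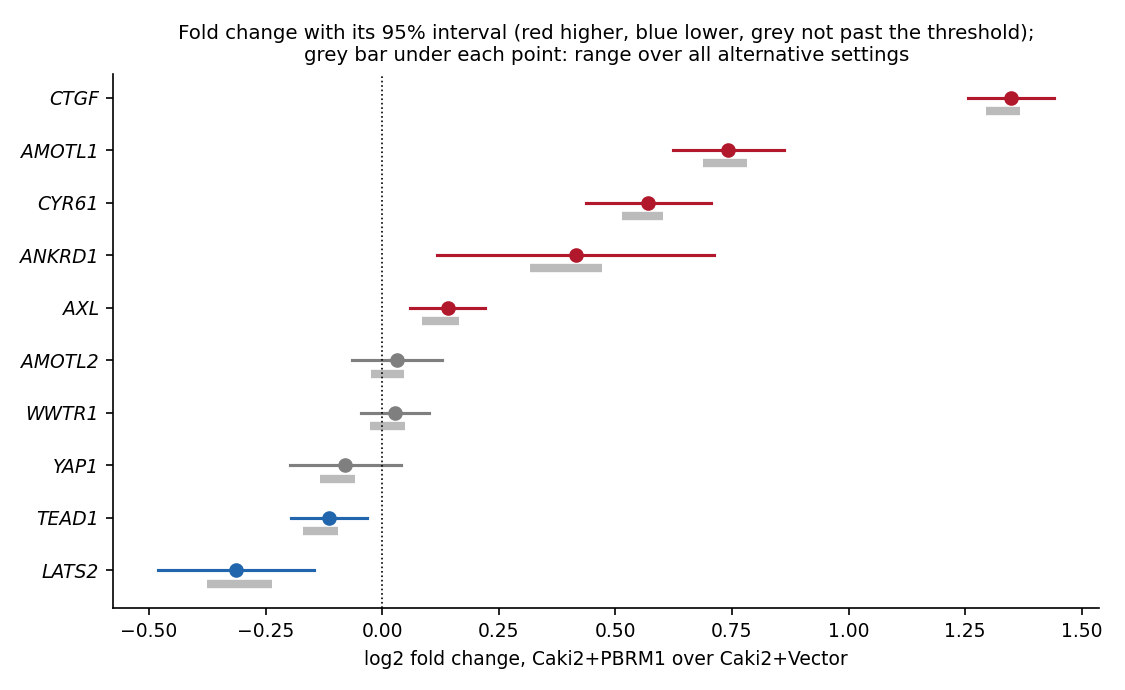
Log2 fold change (horizontal axis, Caki2+PBRM1 over Caki2+Vector) of each gene with its 95% interval from limma, in red where higher, blue where lower and grey where the adjusted p was not under 0.05, with a thick grey bar for the range over the alternative settings. CTGF (1.29 to 1.37), AMOTL1 (0.69 to 0.78) and CYR61 (0.51 to 0.60) kept their distance from 0 in every setting, while the bars of WWTR1 and AMOTL2 cross 0.

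Levels of different genes were compared only per kb of exon, in normalized counts per kb. In Caki2+Vector the order was AXL (643), WWTR1 (538), CTGF (385), TEAD1 (233), AMOTL2 (159), CYR61 (105), YAP1 (98.9), LATS2 (52.4), AMOTL1 (49.7) and ANKRD1 (31.6). The samples of neighbours overlapped for CYR61 and YAP1 and for LATS2 and AMOTL1, and for no other neighbours. In Caki2+PBRM1 CTGF came first (982), ahead of AXL (709) and WWTR1 (549). CYR61 (156) overlapped AMOTL2 (163), AMOTL1 (83.1) stood above LATS2 (42.3), and LATS2 overlapped ANKRD1 (42.2). Thus CTGF moved from the third to the first place, and AMOTL1, which overlapped LATS2 in Caki2+Vector, stood clear of it in Caki2+PBRM1.

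**Figure D4:**
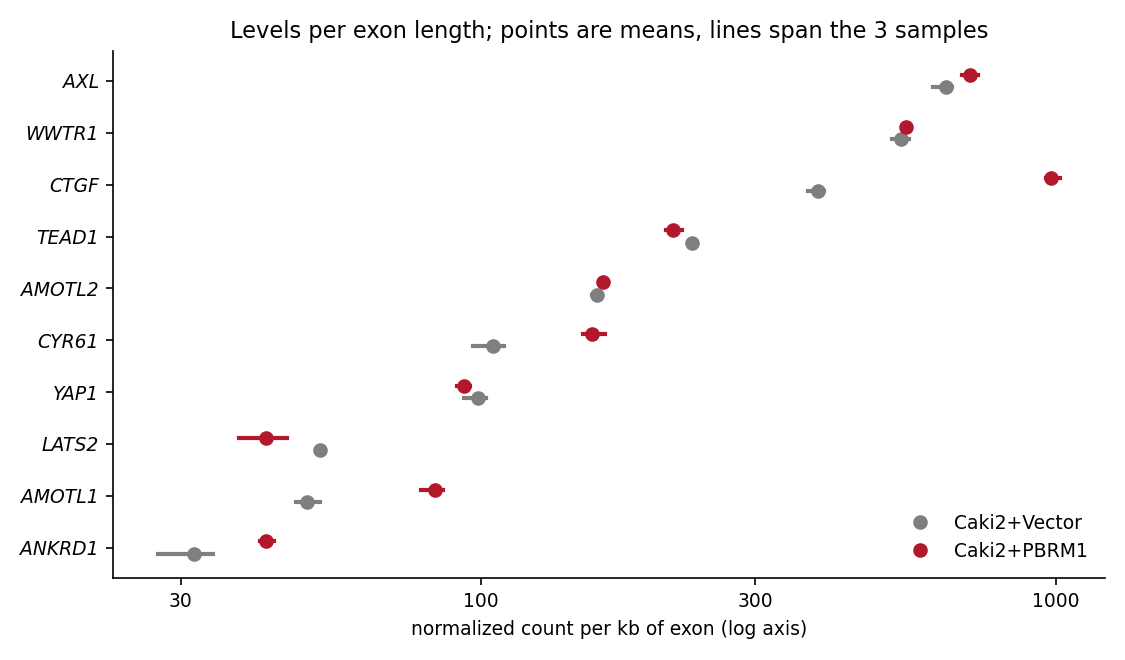
Normalized count per kb of exon (horizontal log axis) of the 10 genes, with points for the means of 3 samples and lines from the lowest to the highest sample, in grey for Caki2+Vector and red for Caki2+PBRM1. CTGF moves from 385 to 982, past AXL and WWTR1, whereas WWTR1 stays at 538 and 549.

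The core kinase cassette upstream of YAP and TAZ (STK3, STK4, SAV1, LATS1, MOB1A, MOB1B and NF2) had 3 downregulated and 0 upregulated genes among 7 tested, with a median log2 fold change of -0.16. Over all tested genes 13.0% were called lower and 16.2% were called higher. NF2, which encodes the tumor suppressor merlin, had 1285, 1289 and 1387 normalized counts in Caki2+Vector and 1195, 1172 and 1118 in Caki2+PBRM1 (log2 fold change -0.18, adjusted p = 0.00386 from limma). STK3 (MST2) had a log2 fold change of -0.25 (adjusted p = 0.0234) and the scaffold SAV1 one of -0.16 (adjusted p = 0.0322). For LATS1, the other LATS kinase, the log2 fold change was 0.01 (95% interval -0.11 to 0.12). With DESeq2 only NF2 of the 3 stayed past the threshold, and STK3 and SAV1 were each also lost without Caki2+Vector C or without Caki2+PBRM1 C (adjusted p from 0.0651 to 0.184). SAV1 was further lost without Caki2+Vector A (0.0563) and without Caki2+PBRM1 A (0.123).

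Among 18 upstream regulators, all tested, 7 were upregulated and 3 downregulated, beside 16.2% and 13.0% over all tested genes. Their median log2 fold change was 0.11. AMOT (above) and FRMD6 rose most. FRMD6, a FERM-domain protein at the cell cortex, had 155, 124 and 140 normalized counts in Caki2+Vector and 289, 316 and 299 in Caki2+PBRM1, with no overlap (log2 fold change 1.11, SE 0.092, adjusted p = 1.11e-10 from limma). The giant cadherin FAT1 and the kinase TAOK1 rose by smaller steps, with log2 fold changes of 0.26 (adjusted p = 7.25e-08 from limma) and 0.21 (adjusted p = 0.000304). WWC1, which encodes the scaffold KIBRA, fell from 1327, 1267 and 1352 to 1017, 1014 and 984 normalized counts (-0.39 on the log2 scale, SE 0.047, adjusted p = 1.61e-07). Its paralog WWC2 and the polarity gene CRB3 also fell (log2 fold changes -0.18 and -0.59, adjusted p = 0.0179 and 0.0176), both calls being lost with DESeq2 (adjusted p = 0.0773 and 0.114) and without Caki2+Vector C (0.055 and 0.0593). CRB3 lost its call without Caki2+PBRM1 C too (0.0608), and WWC2 without Caki2+PBRM1 A (0.0601) or B (0.0803).

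Of the other TEAD factors and the VGLL cofactors, which compete with YAP and TAZ for TEAD, 4 of 7 were tested (median log2 fold change -0.14). Of these, 1 was upregulated and 1 downregulated, beside 16.2% and 13.0% over all tested genes. TEAD4 fell from 229, 207 and 192 normalized counts to 171, 157 and 154 (log2 fold change -0.37, SE 0.094, adjusted p = 0.00288 from limma). TEAD2 (-0.10, 95% interval -0.24 to 0.05) and TEAD3 (-0.18, 95% interval -0.46 to 0.09) did not pass the threshold. VGLL4 rose from 313, 389 and 352 normalized counts to 441, 438 and 427 (log2 fold change 0.31, SE 0.073, adjusted p = 0.00157). VGLL1, VGLL2 and VGLL3 were too low to test, with at most 1 read in any sample. Per kb of exon TEAD1 was the most abundant TEAD transcript in Caki2+Vector at 233 normalized counts, followed by TEAD2 at 130.3, TEAD4 at 92.0 and TEAD3 at 34.2.

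A further 16 genes that are widely used as YAP/TAZ targets were all tested, with a median log2 fold change of 0.15. Of these, 7 were upregulated and 1 was downregulated, beside 16.2% and 13.0% over all tested genes. The list was chosen with earlier results of these data known, so the difference from these shares is not a test. CCDC80 passed the filter only through the Caki2+PBRM1 samples, where it was high. F3 reached 10 normalized counts in Caki2+Vector A and C but not B, so it too needed a Caki2+PBRM1 sample to pass. With at least 10 normalized counts required in every sample, neither was tested, and 5 of 14 tested genes were upregulated and 1 was downregulated. PTPN14 is counted both here and among the upstream regulators. NT5E, the ecto-nucleotidase CD73, had 755, 736 and 742 normalized counts in Caki2+Vector and 1299, 1276 and 1316 in Caki2+PBRM1 (log2 fold change 0.80, SE 0.048, adjusted p = 6.77e-14 from limma). F3, the tissue factor gene, rose from 20.8, 8.50 and 22.8 to 67.2, 65.8 and 52.0 normalized counts (1.87 on the log2 scale, SE 0.28, adjusted p = 3.49e-05). CCDC80, a matrix protein gene, had only 0, 3.78 and 1.20 normalized counts in Caki2+Vector and 10.8, 16.0 and 20.1 in Caki2+PBRM1, so the size of its log2 fold change of 2.89 depends on the pseudocount (1.82 with a pseudocount of 4). IGFBP3, which binds insulin-like growth factors, had a log2 fold change of 1.69 (adjusted p = 2.08e-25). NUAK2, a kinase of the AMPK family, was the only one downregulated (log2 fold change -0.29, adjusted p = 0.0140), a call lost with DESeq2 (0.0634), without Caki2+Vector B (0.0917) and without Caki2+PBRM1 C (0.0833). The remaining 8 genes did not pass the threshold, among them MYOF (log2 fold change 0.004, 95% interval -0.07 to 0.08). The hexamer was present in a promoter window of 4 of the 11 genes of this list with a window (FOXF2, PTPN14, NUAK2 and TGFB2). It was present for 5 of 14 upstream regulators, 0 of 6 genes of the core kinase cassette and 16.7% of all gene symbols with a window.

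**Figure D5:**
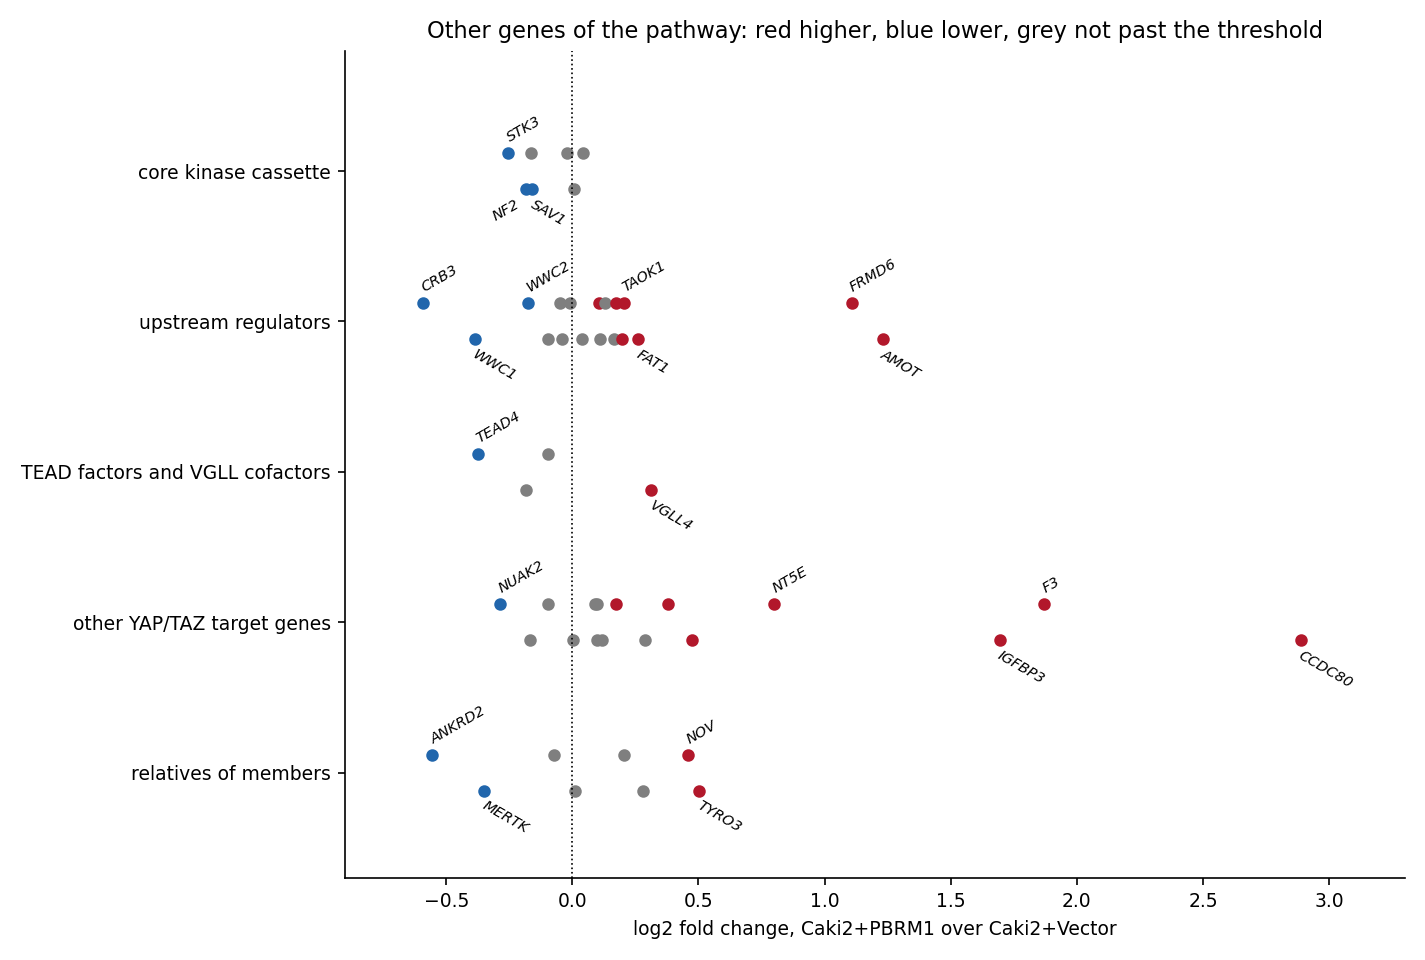
Log2 fold change (horizontal axis, Caki2+PBRM1 over Caki2+Vector) of the tested genes of 5 lists around the 10 genes, a point per gene, in red where higher, blue where lower and grey where the adjusted p was not under 0.05. The core kinase cassette has 3 blue and 0 red points, and the further targets have 7 red points and 1 blue point. Of the red points, CCDC80 (2.89) passed the filter only through the Caki2+PBRM1 samples, and F3 (1.87) was under 10 normalized counts in Caki2+Vector B.

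Among 10 relatives of the 10 genes, 8 were tested (median log2 fold change 0.11). Of these, 2 were upregulated and 2 downregulated, beside 16.2% and 13.0% over all tested genes. In the CCN family NOV (CCN3) rose from 518, 511 and 493 to 706, 668 and 721 normalized counts (0.46 on the log2 scale, SE 0.058, adjusted p = 2.98e-07 from limma), and WISP2 (CCN5), a family member without the C-terminal domain, had 0.20 (95% interval -0.02 to 0.43), while WISP1 and WISP3 were below the filter. Among the kinases of the AXL family TYRO3 rose (log2 fold change 0.50, adjusted p = 2.84e-07) and MERTK fell (-0.35, adjusted p = 0.0133), the latter call being lost with DESeq2 (0.0656) and without Caki2+PBRM1 B (0.0719) or C (0.0564). Per kb of exon in Caki2+Vector, AXL stood at 643 normalized counts and TYRO3 and MERTK at 37.1 and 36.9. The ligand genes GAS6 (0.28, adjusted p = 0.0611) and PROS1 (0.01, adjusted p = 0.969) did not pass the threshold. Of the muscle ankyrin repeat relatives of ANKRD1, ANKRD2 was called lower (log2 fold change -0.56, adjusted p = 0.0480) from 24 to 53 reads per sample, a call lost with DESeq2 (0.170), with no filter on low values (0.0590) and without Caki2+Vector B (0.259) or C (0.0633) or Caki2+PBRM1 A (0.109) or C (0.208), and ANKRD23 had -0.07 (95% interval -0.51 to 0.36).

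The methods describe no marking of strand, and without it reads of a gene and of its antisense partner cannot be told apart. WWTR1 shares 756 bases of exon with the antisense gene WWTR1-AS1, which had 2.83 to 6.71 normalized counts per sample. YAP1 and AMOTL1 share 628 and 496 bases with antisense noncoding genes of GENCODE that the gene list of the study does not name, AXL shares 67 bases with another, and AMOTL2 contains 187 bases of a processed pseudogene, RPL39P5.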

How the data were processed

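The files hold 1 value per gene for 25369 genes in each of 6 poly(A) RNA-Seq samples. Per the study's methods, alignment was to hg19 (STAR) and counting by htseq-count, after removal of low-quality and ribosomal sequence. Tool versions are not given in the sources used here. The values the authors deposited are a signal per gene, that is, read counts divided by a DESeq2 size factor per sample (0.834 to 1.19). Whole reads were recovered from the steps between values (100% of values whole within 0.05), on which edgeR called 2194 genes higher and 1836 lower.

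Genes with at least 10 normalized counts in at least 3 samples were tested as log2(value + 1) with limma 3.58.1 (trend, robust) in R 4.3.3, and fold changes are on that scale. Alternatives were edgeR 4.0.16, DESeq2 1.42.0 and limma voom on recovered reads, scaling by total reads, quantile normalization, pseudocounts of 0.5 and 4, other filters, a threshold of 0.01, a replicate block and leaving out each sample. The tests were also run on simulated counts with the same dispersion in every sample, unlike these data, where Caki2+Vector A stood apart. No result given here rests on that run. Each of the 10 genes is named, with up to 4 genes called higher and up to 4 called lower with the largest change from each list. Genes of the lists that did not pass and are named were chosen after their values were seen. The 10 genes and the lists were chosen with earlier results of these data known. Gene positions and exon lengths are from GENCODE on GRCh37, and promoter windows from RefSeq on GRCh38.p14.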

Additional observations from a re-analysis of the deposited data

How the results depend on the processing

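Of the 10 genes, CTGF, AMOTL1 and CYR61 stayed past the threshold in all 17 alternatives, and YAP1, WWTR1 and AMOTL2 stayed short of it in all 17. The calls of ANKRD1, TEAD1, AXL and LATS2 were lost in 8, 5, 2 and 1 of them. The count of upregulated genes among the 10 was 5. It was 4 with DESeq2, with quantile normalization and at a threshold of 0.01, and 3 under scaling by total reads. The count of downregulated genes was 2, and 1 with DESeq2 and at a threshold of 0.01. Leaving out a sample gave 3 to 5 upregulated and 0 to 2 downregulated genes, with 3 upregulated without Caki2+PBRM1 B and 0 downregulated without Caki2+PBRM1 A.

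In the lists, counts of downregulated genes moved. With DESeq2 they were 1 for the core kinase cassette, 1 for the upstream regulators, 0 for the further targets and 0 for the relatives, and at a threshold of 0.01 they were 1, 1, 0 and 0. Scaling by total reads gave 2 downregulated further targets, and no filter on low values gave 1 downregulated relative. Leaving out a sample gave 1 to 4 for the core kinase cassette, 1 to 4 for the upstream regulators, 0 to 2 for the further targets and 0 to 2 for the relatives.

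Over all genes, 2152 were upregulated and 1734 downregulated. DESeq2 called 1496 and 1057, edgeR 2194 and 1836, and a threshold of 0.01 left 1496 and 1025. Scaling by total reads gave 1625 upregulated and 2781 downregulated genes, so that 36.9% of calls were upregulated instead of 55.4%, with a median log2 fold change of all genes of -0.06. The cause of these changes was not tested. Leaving out a sample gave 1597 to 2251 upregulated and 1201 to 1903 downregulated genes. Same-lettered samples had correlations of deviations from -0.008 to 0.014, and not every sample correlated best with its own letter. With the letter as a replicate block, 2249 genes were upregulated and 1858 downregulated, and the block changed no call among the 10 genes. The depth leaves genes of few reads, such as ANKRD1, F3 and CCDC80, with wide errors.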
